A study of Mus musculus with 6 samples.

Results

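Cyclic nucleotide phosphodiesterases are the enzymes that break down cAMP and cGMP, and 10 of their genes are described here in cultured mouse brown adipocytes. They were taken by gene symbol, as the rows Pde1a, Pde3a, Pde3b, Pde4a, Pde4b, Pde4d, Pde7a, Pde8a, Pde8b and Pde10a of a count table with 46095 rows, and all 10 were found and passed the filter on low counts. The table also held 14 other genes of the family, of which 7 passed that filter. RNA sequencing covered 3 libraries of the genotype U-IRX3ov and 3 control libraries, all from C57BL/6 mice aged 5 weeks. The cells were the stromal vascular fraction of brown fat, that is the fat pad's preadipocytes and other non-adipocyte cells, differentiated in culture over 8 days. For the first 2 days every culture of both groups had IBMX (0.5 mM) together with triiodothyronine, rosiglitazone and dexamethasone (1 µM each) and insulin (5 µg/mL). For the following 6 days IBMX and dexamethasone were left out. IBMX is itself a broad inhibitor of phosphodiesterases, to which the PDE8 enzymes are known to be insensitive. U-IRX3ov stands for overexpressed IRX3, and the titles of these libraries read KI. Neither the promoter, the cells it drives expression in nor the zygosity is given in the labels.

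In fat cells, cAMP made after adrenergic stimulation activates protein kinase A, which switches on lipolysis and, in brown fat, heat production. Phosphodiesterases end that signal, and they differ in which nucleotide they cleave and in what controls them. PDE3B is the classical adipocyte form, through which insulin lowers cAMP and restrains lipolysis. The PDE4, PDE7 and PDE8 enzymes cleave cAMP specifically, whereas the PDE3 enzymes, PDE1A and PDE10A can cleave both nucleotides.

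Library totals ran from 20094799 to 26755870 counts in the U-IRX3ov libraries and from 25371093 to 26573164 in the control libraries. The labels do not say that replicates are different animals or cultures, so p-values measure the spread between these 6 libraries, which may be technical. Irx3 itself averaged 6.16 ± 0.23 CPM in U-IRX3ov and 5.11 ± 0.32 CPM in control cells (SD, n = 3 each) and did not pass the test (log2 fold change 0.27, 95% interval -0.01 to 0.55, edgeR adjusted p = 0.112). CPM are read counts scaled to library size by the TMM method, and the Irx3 row may or may not hold the construct's transcript. By library, Irx3 was at 6.27, 6.31 and 5.89 CPM in U-IRX3ov and 4.78, 5.42 and 5.12 CPM in control. These groups did not overlap, as was so for 50.8% of all genes tested. Brown adipocyte markers were higher in 10 of 12 tested and lower in 2. The 2 lower ones, named after their values were seen, were Zic1 and Lhx8 (log2 fold changes -0.88 and -0.69). Ucp1, the uncoupling protein of brown fat, was at 231, 221 and 267 CPM in U-IRX3ov and 21.1, 19.0 and 19.1 CPM in control libraries. Ucp1 was thus counted in every library, though bulk counts do not show what share of the cells expressed it. Markers of other cells in the fraction differed too. Beside the counts of markers in this paragraph, 20.2% of all 14757 genes tested were higher and 21.1% lower (edgeR adjusted p of at most 0.05). All 15 tested leukocyte markers were lower, with a summed level of 164 to 242 CPM in U-IRX3ov and 505 to 619 CPM in control libraries. Of 15 tested preadipocyte and fibroblast markers 14 were lower and 0 higher (7659 to 8224 CPM in U-IRX3ov, 11660 to 11750 CPM in control). Of 11 tested smooth muscle and pericyte markers 8 were lower and 2 higher (3805 to 4149 CPM in U-IRX3ov, 6069 to 6320 CPM in control). Of 10 tested endothelial markers 5 were higher and 1 lower (92.3 to 103 CPM in U-IRX3ov, 114 to 119 CPM in control, with Cldn5 at 0 throughout). Eng alone made that sum lower, since without it the other endothelial markers summed to 62.8 to 67.4 CPM in U-IRX3ov and 40.9 to 45.3 CPM in control libraries. Skeletal muscle markers summed to 17.0 to 24.1 CPM in U-IRX3ov and 20.3 to 23.6 CPM in control, with Myf5 at 0, and 2 of 3 tested were higher and 1 lower. General adipocyte markers were higher in 7 of 10 and lower in 0 (35330 to 36810 CPM in U-IRX3ov, 28500 to 29230 CPM in control). In such bulk libraries, fewer cells of a type and less of its RNA per cell cannot be told apart.

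Expressed per kilobase of exon, Pde3b stood far above the other 9 genes and all 14 other family genes in both groups. Its level was 84.2, 92.5 and 95.8 RPKM in the U-IRX3ov libraries and 61.1, 62.3 and 55.8 RPKM in the control libraries. Among the 10, the next was Pde8a, which averaged 6.47 ± 0.15 RPKM in U-IRX3ov and 6.30 ± 0.10 RPKM in control cells (SD, n = 3 each). Pde3b therefore made up 77.2%, 78.6% and 79.2% of the summed RPKM of the 10 genes in U-IRX3ov libraries, and 71.5%, 71.9% and 69.6% in control libraries, without overlap between the groups. After Pde8a came Pde7a (5.15 ± 0.21 RPKM in U-IRX3ov, 5.30 ± 0.19 in control) and Pde1a (4.21 ± 0.10 RPKM in U-IRX3ov, 3.98 ± 0.13 in control). The lowest of the 10 was Pde8b, at 0.318 ± 0.062 RPKM in U-IRX3ov and 0.449 ± 0.086 RPKM in control cells. Of the family genes outside the 10, Pde6d had the highest level (6.27 ± 0.38 RPKM in U-IRX3ov, 7.64 ± 0.58 in control), above Pde8a in control cells. In control cells the order among the 10 from the fifth place down to the ninth was Pde3a, Pde4a, Pde4d, Pde10a and Pde4b, and in U-IRX3ov cells it was Pde4a, Pde4d, Pde3a, Pde4b and Pde10a. Per kilobase of all annotated exons, neighbours in the order did not overlap between their 3 libraries in control cells. In U-IRX3ov cells only Pde4d with Pde3a and Pde4b with Pde10a overlapped. With the longest annotated transcript as the length, Pde3b, Pde8a and Pde8b kept their places. Pde4d took the third place by its mean in U-IRX3ov cells (6.46 ± 0.56 RPKM). Its 3 libraries there, at 5.90, 6.48 and 7.01 RPKM, overlapped with those of Pde8a and of Pde7a. By the longest transcript Pde6d was above Pde8a in both groups (10.45 against 6.88 RPKM in U-IRX3ov, 12.74 against 6.705 in control). In control cells that length also put Pde4a above Pde3a (4.43 against 3.12 RPKM) and Pde4b above Pde10a (1.55 against 1.5 RPKM).

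**Figure D1:**
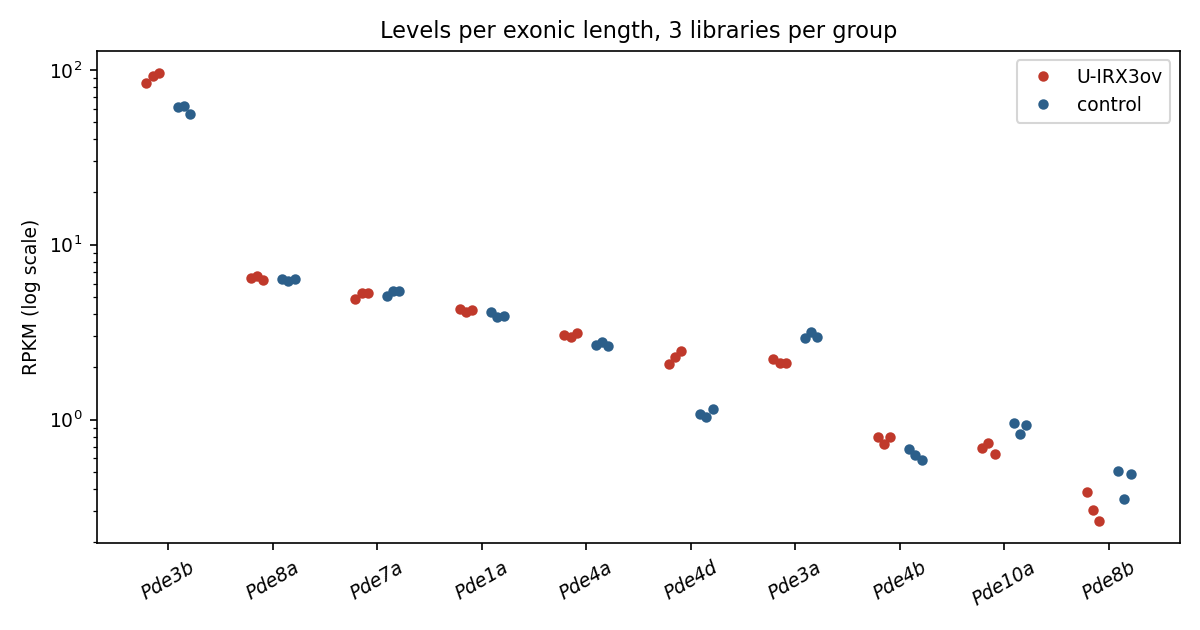
Levels of the 10 phosphodiesterase genes in RPKM (vertical axis, log scale), with 1 point per library, U-IRX3ov left of control within each gene. Pde3b lies between 55.8 and 95.8 RPKM in the 6 libraries and every other gene lies below 7 RPKM.

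The genotypes were compared gene by gene. Of the 10 genes, Pde3b, Pde4d and Pde4a were higher in U-IRX3ov cells and Pde3a and Pde10a were lower, while 5 did not pass (edgeR quasi-likelihood F test, adjusted p of at most 0.05 over 14757 genes). That is 5 of 10, beside 41.3% of all genes tested, of which 20.2% were higher and 21.1% lower, so the share called is near that of the table as a whole. A change greater than 1.5-fold passed its own test for 1 of the 10, Pde4d, beside 4.62% of all genes (1.88% higher, 2.74% lower). The 2 groups of libraries did not overlap in CPM for 6 of the 10, of which 4 were higher and 2 lower, beside 50.8% of all genes (24.9% higher, 25.9% lower). The median log2 fold change was 0.06 over the 10 genes and -0.005 over all genes tested.

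**Figure D2:**
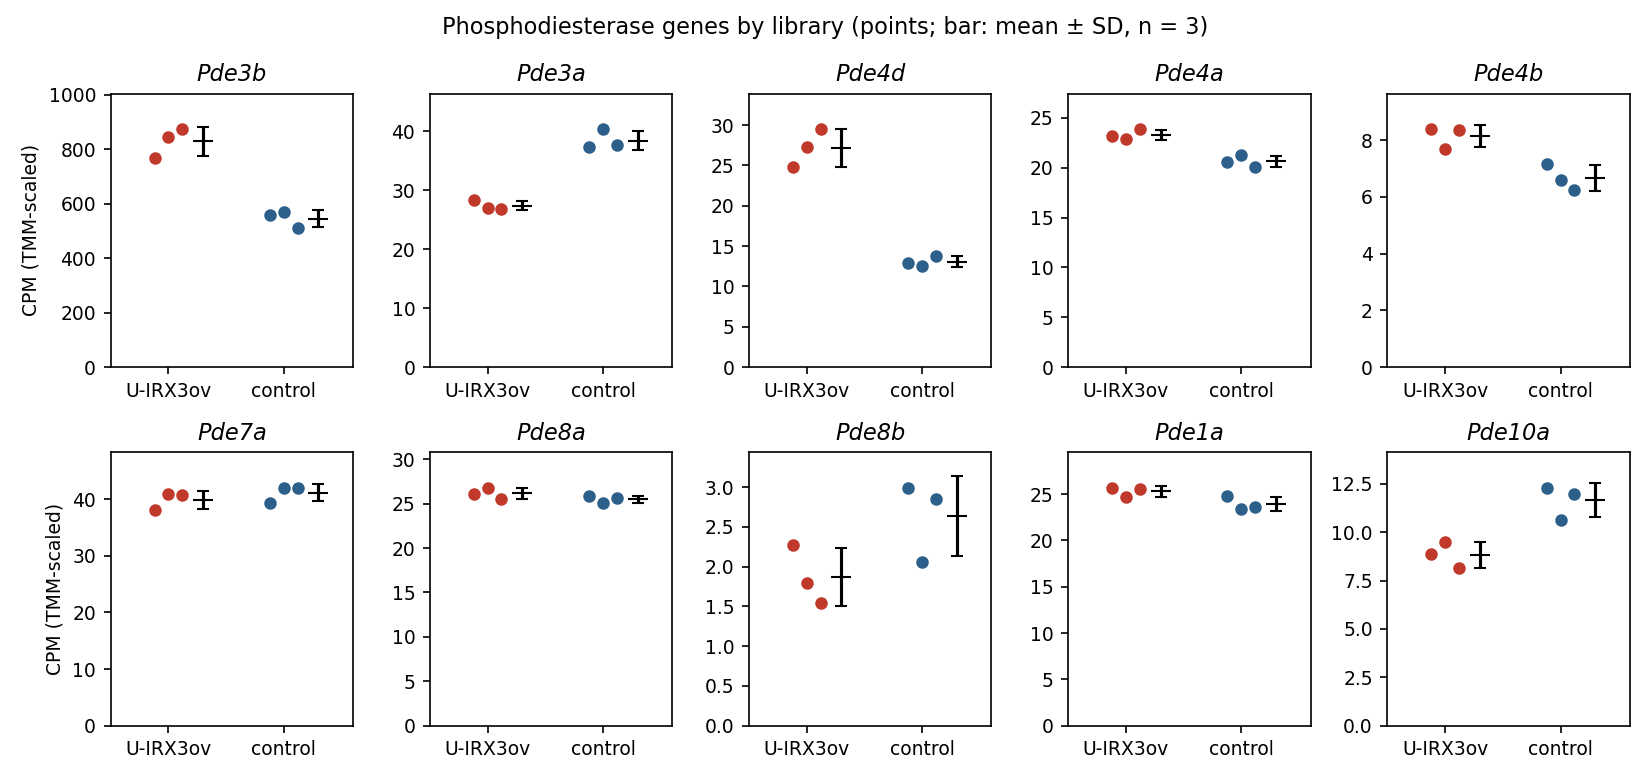
CPM after TMM scaling (vertical axes from 0) of each of the 10 genes in the 3 U-IRX3ov libraries (left in each panel) and the 3 control libraries (right), with mean ± SD beside the points. The groups are separate for Pde3b, Pde3a, Pde4d, Pde4a, Pde4b and Pde10a, and overlap for the other 4 genes.

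Within the PDE3 pair the genes moved in opposite directions. Pde3b, on chromosome 7 at 114415281 to 114539251 (plus strand, mm10), had 768, 843 and 873 CPM in U-IRX3ov libraries, against 557, 567 and 509 CPM in control libraries. Every U-IRX3ov library lay above every control library. The fold was 1.52 (95% interval 1.41 to 1.63, log2 fold change 0.60 ± 0.05 SE, edgeR adjusted p = 5.04e-08). Of all tested genes, 94.0% had a smaller log2 fold change. Pde3a, the form best known from heart, vascular smooth muscle, platelets and oocytes, had 28.3, 26.995 and 26.8 CPM in U-IRX3ov libraries, against 37.3, 40.3 and 37.6 CPM in control libraries. All 3 U-IRX3ov libraries lay lower. Its fold was 0.713 (95% interval 0.652 to 0.780, log2 fold change -0.49 ± 0.06 SE, edgeR adjusted p = 3.35e-07). Pde3a lies on chromosome 6 at 141249269 to 141507448 (plus strand), and 741 bases of its exons are overlapped by Gm28523 on the other strand, a transcript with 1 to 18 counts per library. Within each library, a ratio that no scaling can alter, Pde3b had 27.2, 31.2 and 32.6 counts for each Pde3a count in U-IRX3ov cells, against 14.9, 14.1 and 13.5 in control cells. An exact two-sided permutation test gave p = 0.1 for this ratio, the smallest p that 3 against 3 libraries allow.

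**Figure D3:**
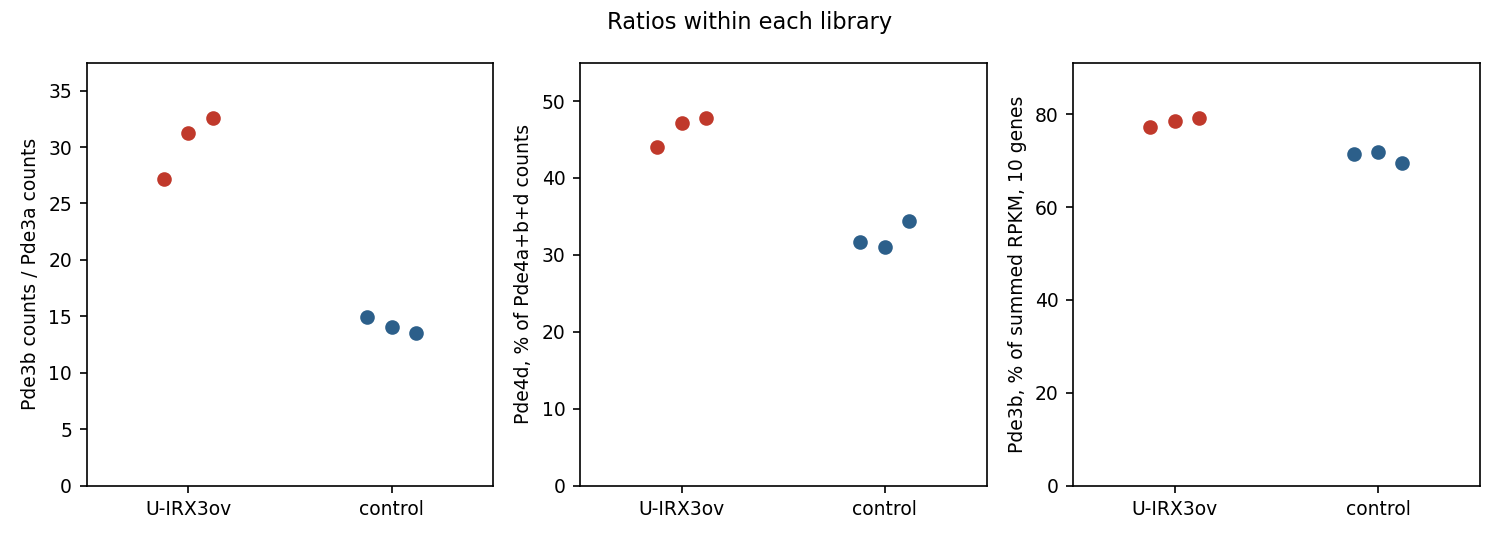
Within-library ratios, 1 point per library, U-IRX3ov left of control, all axes from 0: Pde3b counts over Pde3a counts (left), Pde4d as a percentage of Pde4a, Pde4b and Pde4d counts (middle) and Pde3b as a percentage of the summed RPKM of the 10 genes (right). The U-IRX3ov libraries lie above the control libraries in each panel.

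Pde4d, a cAMP-specific enzyme with many promoters and isoforms, had the largest change of the 10. Its level was 24.8, 27.3 and 29.5 CPM in U-IRX3ov libraries, against 12.9, 12.5 and 13.8 CPM in control libraries, from raw counts of 645, 531 and 571 in U-IRX3ov and 352, 327 and 372 in control. The lowest U-IRX3ov library was well above the highest control library. The fold was 2.08 (95% interval 1.85 to 2.33, log2 fold change 1.05 ± 0.08 SE, edgeR adjusted p = 2.17e-11). Against a change of 1.5-fold the adjusted p was 2.23e-05. A log2 fold change below that of Pde4d was found for 98.2% of tested genes. The gene spans chromosome 13 from 108449948 to 109953461 (plus strand) with 20 annotated transcripts, and counts per gene cannot tell which of its isoforms changed.

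The other PDE4 genes had smaller fold changes. Pde4a, on chromosome 9 at 21165714 to 21213248 (plus strand), had 23.2, 22.8 and 23.9 CPM in U-IRX3ov libraries, against 20.6, 21.2 and 20.1 CPM in control libraries. The groups were separate but close, with a log2 fold change of 0.18 ± 0.07 SE (edgeR adjusted p = 0.0447). That call was lost in 10 of 12 alternative analyses, each of the 6 fits without 1 library among them, where its log2 fold change stayed between 0.16 and 0.20 and the adjusted p ran from 0.0549 to 0.137. Pde4b, the PDE4 form prominent in leukocytes and induced in inflammation, lies on chromosome 4 at 102087543 to 102607259 (plus strand). It had 8.38, 7.70 and 8.37 CPM in U-IRX3ov libraries, against 7.16, 6.61 and 6.23 CPM in control libraries. Its groups did not overlap either, with a log2 fold change of 0.29 (unadjusted 95% interval 0.04 to 0.54), and it did not pass the test (edgeR adjusted p = 0.0538). Without control replicate 1 it passed (0.35, edgeR adjusted p = 0.0490). Leukocyte markers, all 15 tested, were lower in the same U-IRX3ov libraries, and a relation of Pde4b to them was not tested. Pde4d made up 44.0%, 47.2% and 47.8% of the counts of these 3 PDE4 genes in U-IRX3ov libraries, against 31.7%, 31.0% and 34.4% in control libraries. These shares did not overlap between groups (exact two-sided permutation p = 0.1).

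Among the windows from 250 bases before to 50 bases after annotated RefSeq starts (GRCm38.p6), 20 belonged to 7 of the 10 genes, all but Pde3a, Pde3b and Pde7a. They were searched on both strands for the core of the cAMP response element, TGACG or its reverse complement CGTCA, and for the full palindrome TGACGTCA, which contains both. A core was in 5 of the 20 windows, beside 20.8% of all 32851 windows of the table, and the full element in 0 of 20, beside 1.79%. The genes with such a core were Pde1a, Pde4a, Pde4b, Pde8a and Pde8b. Windows of Pde8b overlap one another, so the 20 are not all separate sequences. The windows of Pde4d, the gene with the largest change, and of the Pde4a start that held a core are printed 5′ to 3′ to show what was searched, with cores in capitals. They are chr13:108653927-108654226 and chr9:21183851-21184150, both on the plus strand. The letters searched for are not in the Pde4d window, which covers 1 annotated start of this gene.
Pde4d start: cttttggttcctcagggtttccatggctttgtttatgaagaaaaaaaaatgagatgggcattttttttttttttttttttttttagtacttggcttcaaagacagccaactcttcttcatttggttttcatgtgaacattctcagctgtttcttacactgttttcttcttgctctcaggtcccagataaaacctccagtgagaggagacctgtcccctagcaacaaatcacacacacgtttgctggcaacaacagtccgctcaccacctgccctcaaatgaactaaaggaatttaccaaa
Pde4a start: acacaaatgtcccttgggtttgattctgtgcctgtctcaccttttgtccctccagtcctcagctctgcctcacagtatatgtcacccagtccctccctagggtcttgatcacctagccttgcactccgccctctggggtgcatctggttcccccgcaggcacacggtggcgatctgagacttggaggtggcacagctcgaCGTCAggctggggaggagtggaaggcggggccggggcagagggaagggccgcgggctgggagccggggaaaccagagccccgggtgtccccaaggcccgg

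None of the other cAMP-specific genes passed the test with all 6 libraries. Pde7a, on chromosome 3 at 19223108 to 19311322 (minus strand), shares 48 exonic bases with Gm16093 on the other strand. It had 38.1, 40.9 and 40.8 CPM in U-IRX3ov libraries, against 39.4, 42.0 and 41.9 CPM in control libraries. The groups overlapped, and the 95% interval of the fold, 0.892 to 1.05, held no change as large as that of Pde3a (edgeR adjusted p = 0.584). Pde8a, a high-affinity cAMP enzyme, had 26.1, 26.8 and 25.6 CPM in U-IRX3ov libraries, against 25.8, 25.1 and 25.6 CPM in control libraries. Its groups overlapped as well, with an interval of the fold from 0.936 to 1.12 (edgeR adjusted p = 0.682). Pde8a lies on chromosome 7 at 81213596 to 81334533 (plus strand). Its paralog Pde8b was the lowest of the 10, with raw counts of 59, 35 and 30 in U-IRX3ov libraries and 82, 54 and 77 in control libraries. These were 2.27, 1.80 and 1.55 CPM in U-IRX3ov, against 2.99, 2.06 and 2.86 CPM in control libraries, and control replicate 2 lay below U-IRX3ov replicate 1. The log2 fold change of -0.48 ± 0.23 SE did not pass (edgeR adjusted p = 0.0953), and passed without control replicate 2 (-0.63, edgeR adjusted p = 0.0441). Pde8b, on chromosome 13 at 95024454 to 95250336 (minus strand), shares 447 exonic bases with Gm48420 on the other strand.

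Pde1a and Pde10a, whose products cleave both nucleotides as the PDE3 enzymes do, complete the 10. Pde1a, a calmodulin-activated form on chromosome 2 at 79834453 to 80129458 (minus strand), had 25.7, 24.6 and 25.6 CPM in U-IRX3ov libraries, against 24.8, 23.3 and 23.6 CPM in control libraries. The groups overlapped and the interval of the fold was 0.963 to 1.16 (edgeR adjusted p = 0.348). Pde10a, best known from the striatum, lies on chromosome 17 at 8525372 to 8986648 (plus strand). It had 8.88, 9.49 and 8.16 CPM in U-IRX3ov libraries, against 12.3, 10.7 and 11.99 CPM in control libraries. All U-IRX3ov values lay below all control values, for a fold of 0.759 (95% interval 0.652 to 0.884, log2 fold change -0.40 ± 0.11 SE, edgeR adjusted p = 0.00349).

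**Figure D4:**
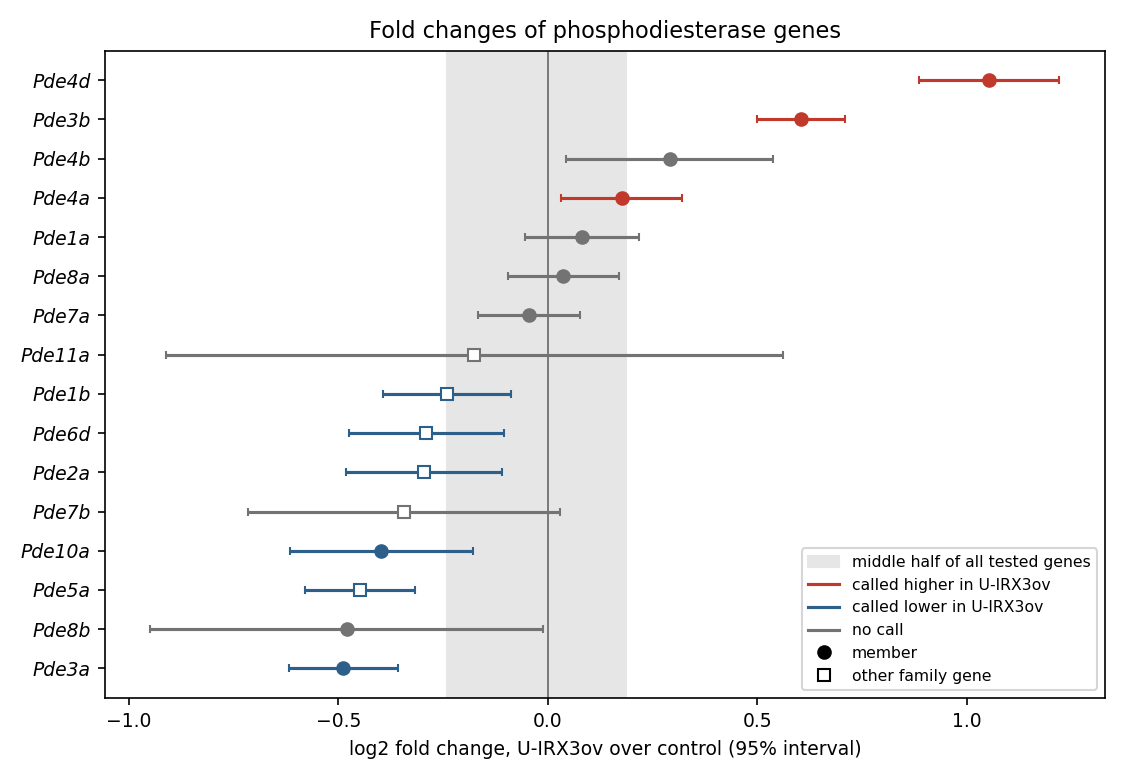
Log2 fold changes of U-IRX3ov over control (horizontal axis) with unadjusted 95% intervals for the 10 genes (circles) and the other family genes with at least 1 CPM in either group (open squares), coloured by call. The grey band from -0.24 to 0.19 is the interquartile range of all tested genes, and Pde4d at 1.05 and Pde3b at 0.60 lie furthest to its right.

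Of the 7 other family genes that passed the filter, 4 were lower in U-IRX3ov cells and 0 higher, beside 21.1% lower and 20.2% higher of all genes tested, with a median log2 fold change of -0.29. Pde5a, the cGMP-specific enzyme inhibited by sildenafil, had 24.1, 23.9 and 23.5 CPM in U-IRX3ov libraries, against 31.4, 33.1 and 33.2 CPM in control libraries (log2 fold change -0.45 ± 0.06 SE, edgeR adjusted p = 1.68e-06). Its groups were separate. Pde2a, which cGMP stimulates, fell by 0.30 on the log2 scale and the calmodulin-activated Pde1b fell by 0.24. Pde6d, whose product binds prenylated proteins rather than cleaving nucleotides, fell by 0.29. The Pde1b call was lost without U-IRX3ov replicate 1 (edgeR adjusted p = 0.0588) and without U-IRX3ov replicate 3 (0.0777), the Pde2a call without control replicate 2 (0.0595), and the Pde6d call without U-IRX3ov replicate 1 (0.0702) and without control replicate 3 (0.0586). Most exons of Pde2a, 3955 bases, are shared with the annotated gene Gm45837 on the same strand, so its counts are uncertain. Pde7b (-0.34, edgeR adjusted p = 0.135) and Pde11a (-0.18, edgeR adjusted p = 0.730) did not pass, nor did Pde1c (-0.10, edgeR adjusted p = 0.905), which falls outside the naming rule and is named after its values were seen. The retinal Pde6a, Pde6b, Pde6c, Pde6g and Pde6h and the genes Pde4c and Pde9a had at most 7 counts in any library.

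Phosphodiesterase counts were set against marker counts of the same library, a comparison chosen after the values were seen. The differences were smaller for Pde3b and Pde4d. For Pde10a, and for Pde3a against smooth muscle markers, they turned upward, while Pde3a against fibroblast markers overlapped between the groups. For every 1000 counts of general adipocyte markers there were 21.4, 23.9 and 23.7 Pde3b counts in U-IRX3ov libraries, against 19.6, 19.8 and 17.4 in control libraries. That ratio differed by 0.28 on the log2 scale, beside 0.60 for Pde3b alone. Fabp4 made up 51.1% to 52.6% of the marker sum in U-IRX3ov and 42.7% to 45.7% in control libraries, and without it the Pde3b ratio differed by 0.50. Pde4d had 0.690, 0.771 and 0.801 counts on the same scale in U-IRX3ov libraries, against 0.451, 0.435 and 0.472 in control libraries, a log2 difference of 0.73, or 0.95 without Fabp4. Both ratios were separate between the groups. For every 1000 counts of preadipocyte and fibroblast markers there were 3.44, 3.43 and 3.50 Pde3a counts in U-IRX3ov libraries, against 3.17, 3.46 and 3.22 in control libraries. These overlapped (log2 difference 0.07, exact two-sided permutation p = 0.3). Pde10a had 1.08, 1.21 and 1.07 counts per 1000 of the same markers in U-IRX3ov libraries, against 1.05, 0.914 and 1.03 in control libraries. The U-IRX3ov values were the higher ones here, without overlap (log2 difference 0.17, exact two-sided permutation p = 0.1). Against smooth muscle and pericyte markers, Pde3a had 6.81, 6.99 and 7.05 counts per 1000 in U-IRX3ov libraries, and 6.02, 6.65 and 5.96 in control libraries. These too were higher in U-IRX3ov without overlap (log2 difference 0.16, exact two-sided permutation p = 0.1). Col1a1 averaged 3473 CPM of a fibroblast marker sum of 11660 to 11750 CPM in control libraries. Acta2 averaged 2949.5 CPM of a smooth muscle marker sum of 6069 to 6320 CPM there. The sums were not recomputed without these genes. Log2 fold changes of single tested markers ran from -2.88 to 0.18 in the fibroblast list and from -1.14 to 0.80 in the smooth muscle list. The part of the cell mixture in the fold changes was not tested, and these ratios do not test it.

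For 2 of the genes, those with the nearest pattern were found by the Euclidean distance between log2 CPM values centred over the 6 libraries. Those nearest to Pde4d were Gbe1 (distance 0.0971), Oplah (0.128) and Unc13a (0.130), with log2 fold changes of 1.03 to 1.11. Nearest to Pde3b were Fdx1 (0.0565), Tspan12 (0.0752) and Tiparp (0.0758), with 0.62 to 0.63. All 6 follow the group difference, which many genes share.

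Genes that make, bind or answer to cyclic nucleotides moved in both directions, with 26 higher and 25 lower of 70 tested in 4 lists, beside 20.2% higher and 21.1% lower of all genes. On the side of cAMP production 8 of 17 tested genes were higher and 5 lower, with a median log2 fold change of 0.02. The β-adrenergic receptor genes Adrb3 and Adrb1, whose products raise cAMP, were among the higher ones. Adrb3, the main receptor of rodent adipocytes, had 219, 208 and 202 CPM in U-IRX3ov libraries, against 164, 152 and 159 CPM in control libraries (log2 fold change 0.41 ± 0.04 SE, edgeR adjusted p = 2.81e-09). Adrb1 had 6.81, 6.42 and 5.73 CPM in U-IRX3ov libraries, against 2.19, 3.21 and 2.89 CPM in control libraries (1.20 ± 0.16 SE). Of 9 tested adenylyl cyclases, which make cAMP, 4 were higher and 2 lower. Adcy3 was higher (0.39 ± 0.06 SE), while Adcy7 fell by 0.53 and Adcy1 by 0.48 on the log2 scale, both named after their values were seen. The inhibitory G protein subunits Gnai1 and Gnai2 fell by 0.32 and 0.36 on the log2 scale.

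Among cAMP effectors and anchoring proteins 9 of 26 tested genes were higher and 8 lower (median log2 fold change 0.04). Beside the counts of both lists in this paragraph, 20.2% of all genes tested were higher and 21.1% lower. Prkar2b, the regulatory subunit of protein kinase A typical of fat, had a log2 fold change of 0.41 ± 0.03 SE, and Akap1, which anchors the kinase to mitochondria, one of 0.66 ± 0.05 SE. The anchor Akap12 fell by 0.55 and the kinase inhibitor gene Pkia fell by 0.81. In the list of cAMP-responsive transcription 8 of 16 were higher and 3 lower (median 0.10), with Sik2 at 0.53, Ppargc1a at 1.17 and Per1 at 0.32 higher, while Fos fell by 0.39. Akap4 had 0 counts in every library.

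The cGMP list had 9 of 11 tested genes lower and 1 higher, with a median log2 fold change of -0.71, and Nppc at 0 counts in every library. The natriuretic peptide clearance receptor Npr3 had 117, 116 and 126 CPM in U-IRX3ov libraries, against 194, 201 and 191 CPM in control libraries. The guanylyl cyclase subunit Gucy1a2 fell by 0.94, the cGMP-dependent kinase Prkg1 by 0.74 and its substrate Mrvi1 by 0.78 on the log2 scale. Many of these genes are known from smooth muscle, whose markers were lower in 8 of 11 in the same libraries, and the part of that difference in the list's values was not tested. In the list of insulin signalling to PDE3B and of lipolysis 10 of 18 tested genes were higher and 2 lower (median 0.20). Beside this and the cGMP list, 20.2% of all genes tested were higher and 21.1% lower. Akt2, the insulin-responsive kinase upstream of PDE3B, was higher by 0.52 ± 0.04 SE, as were the lipase gene Lipe (0.53 ± 0.03 SE), the lipase inhibitor G0s2 (0.49 ± 0.04 SE), Plin1 (0.40 ± 0.04 SE) and Pnpla2 (0.24 ± 0.03 SE). Abhd15, whose product stabilises PDE3B in mouse adipocytes, had 101, 118 and 107 CPM in U-IRX3ov libraries, against 98.8, 96.5 and 95.7 CPM in control libraries. Its log2 fold change was 0.16 ± 0.05 SE (edgeR adjusted p = 0.00660), and the call was lost without U-IRX3ov replicate 2 (0.0981).

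**Figure D5:**
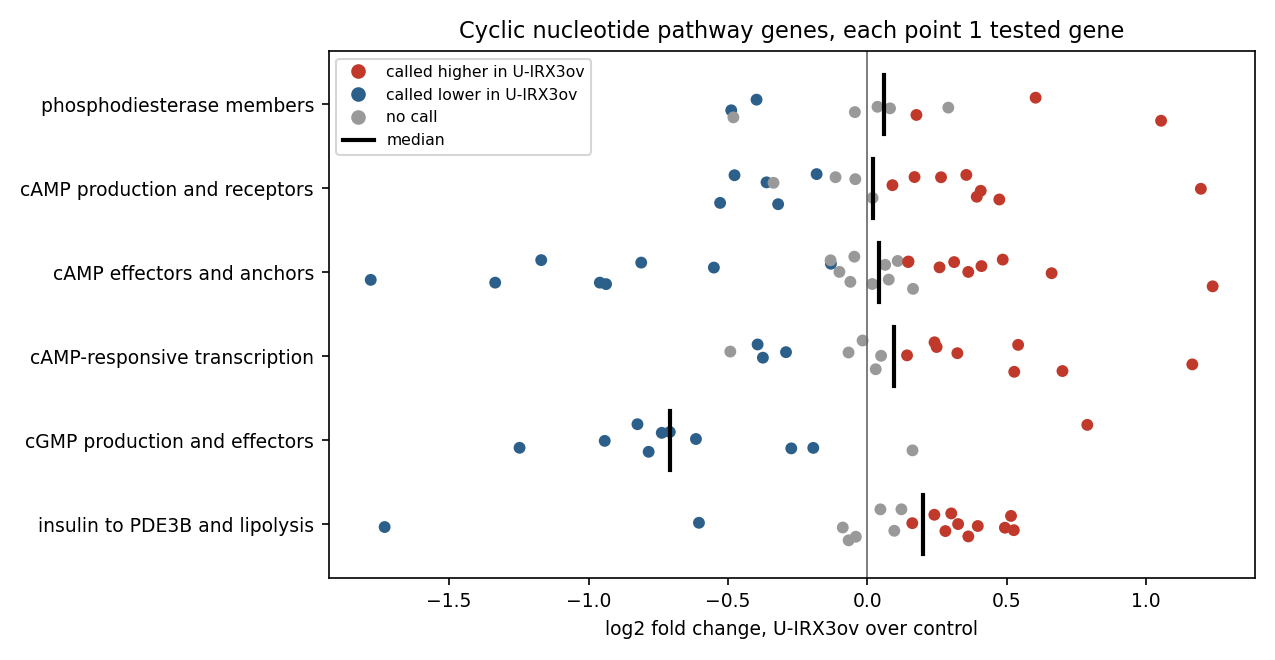
Log2 fold changes of U-IRX3ov over control (horizontal axis) of the 10 phosphodiesterase genes and of tested genes in 5 lists, 1 point per gene coloured by call, with each median as a black bar. The medians are 0.06, 0.02, 0.04, 0.10, -0.71 and 0.20 from top to bottom.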

How the data were processed

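The values are whole-number read counts that the authors deposited for 6 libraries, not normalized, in a table with gene symbols as rows. HISAT2 2.0.4 and mm10 are named in the submitters' processing notes. How and with which annotation reads were counted, and whether by strand, is not given in the sources used here, so genes that overlap another are uncertain. Groups come from the genotype label. The 10 genes and all lists were chosen with earlier results of these data known. Genes low in counts were removed with filterByExpr, leaving 14757, and libraries were scaled by TMM. Differences were tested in edgeR 4.0.16 (R 4.3.3) with the robust quasi-likelihood F test, group as the only term, Benjamini-Hochberg adjustment and a threshold of 0.05, and against a 1.5-fold change with glmTreat. The SE is the log2 fold change divided by the square root of F. The biological coefficient of variation was 5.12%. RPKM used the union of exons of GENCODE M21 (GRCm38). Gucy1a1 and Gucy1b1 were found under the older symbols Gucy1a3 and Gucy1b3. Named were the 10 genes, other family genes called or at 1 CPM, up to 4 called genes with the smallest p per pathway list, and genes fixed by symbol, of which 1 is not reported here. The cGMP list held 17 genes and the cAMP effector list 30. Code was tested on simulated data. Alternatives used DESeq2 1.42.0, limma 3.58.1, other scalings, no filter, the replicate number as a block, and fits without 1 library.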

Additional observations from a re-analysis of the deposited data

How the results depend on the processing

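Fold changes of the 10 phosphodiesterase genes and of 37 other named genes, Zic1 and Lhx8 not among them, were recomputed under 12 alternatives. Of the 10 phosphodiesterase genes, 7 had the same direction and call in all alternatives. Over these, log2 fold changes ran from 0.99 to 1.12 for Pde4d, 0.56 to 0.66 for Pde3b, -0.51 to -0.45 for Pde3a and -0.46 to -0.34 for Pde10a. The exceptions were Pde4a, whose call was lost under upper-quartile scaling (adjusted p = 0.0695), no filter on low counts (0.0845), DESeq2 (0.0953), the replicate block (0.0550) and each fit without 1 library, and Pde4b and Pde8b, which passed in 1 fit each. The number of the 10 genes called was 4 or 5 throughout. The number of other family genes called was 2 to 4 in fits without 1 library, with 2 without U-IRX3ov replicate 1. Pde11a had a log2 fold change of 0.11 without U-IRX3ov replicate 2, the opposite direction (at most 34 counts per library), and -0.64 without U-IRX3ov replicate 1, the range of these fits, and the cause was not tested. Pde1c, at low counts, also changed direction, with 0.18 under limma-voom, 0.042 with the replicate block, 0.18 without U-IRX3ov replicate 1 and 0.92 without control replicate 3 (-0.44 to 0.92 over all alternatives). Of 37 other named genes 30 had the same call in all alternatives. Marker sums without Eng or Fabp4 were added after seeing the data. Titles number the libraries of each group 1 to 3 without saying that a number pairs them. Deviations of same-numbered libraries correlated at -0.11, 0.17 and -0.03, and those of differently numbered ones at -0.15 to 0.17. With 3 libraries per group these values cannot decide whether the numbers pair the samples. With the replicate number as a block, 6173 genes were called, beside 6098 without it. RPKM depend on the length chosen. For Pde8b, at 30 to 82 counts per library, depth limits what can be detected.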
